A study of Rattus norvegicus with 68 samples.

Results

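The blood transcripts of rats killed 24 h after 2500 mg/kg acetaminophen were compared with those of rats killed 24 h after 1500 mg/kg. The comparison rested on 8 of the study's 34 rats, 4 in each dose group, and on 16 of its 68 arrays. The rats were chosen by the dose and time in their labels: 3628, 3629, 3630 and 3631 received 2500 mg/kg, and 3623, 3624, 3625 and 3626 received 1500 mg/kg. All were male F344/N rats of 10 to 12 weeks, dosed by gavage in 2 portions with acetaminophen in 0.5% ethyl cellulose. The whole study also had rats killed at 6 and 12 h and rats given 150 mg/kg, of which the 4 killed at 24 h are shown here for reference. Each rat's blood RNA was hybridised against vehicle control RNA on 2 arrays with the dyes exchanged. At 24 h the control was a single pool of RNA from 6 rats given the vehicle alone.

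Acetaminophen is an analgesic that injures the liver in overdose, when a reactive metabolite depletes glutathione and binds to proteins of hepatocytes. Circulating blood holds neutrophils, monocytes, lymphocytes, red cells that still carry RNA, and platelets, which carry RNA from the megakaryocytes that shed them. During acute tissue injury neutrophils are released from the bone marrow and lymphocytes leave the circulation, and platelets are consumed or gather in the injured organ. In whole blood, fewer cells of a type and less RNA per cell cannot be told apart.

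The values were log10 ratios of the dyes as deposited, converted here to log2, turned to treated over vehicle and averaged over a rat's 2 arrays. They carry no level of a transcript, so the presence of each blood cell type could not be checked from marker abundance. The direction of the deposited ratio is not stated and was taken as Cy5 over Cy3, the usual form of such ratios and so likely; with the opposite direction every sign below would turn. The vehicle pool was the same on all 16 arrays and cancels in the difference between the doses, but it enters both doses' changes from vehicle, so these are set side by side and not correlated. The labels do not say whether the rats were dosed or the arrays run in batches.

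One array stood apart. On the array that carried rat 3631 in Cy5, 10.3% of the probes were listed at exactly 0, against 1.78% to 4.62% on the other 15 arrays. The slope of its deposited ratios on the mean dye profile of the study was -0.51, against 0.49 to 1.94 on the others. S100a9, a neutrophil protein, read -2.02 on this array and 4.0 on the same rat's Cy3 array (log2, treated over vehicle). S100a8, its partner subunit, read -0.31 and 3.66. The correlation between a rat's Cy5 and Cy3 arrays, both turned to treated over vehicle, did not set rat 3631 apart. At 0.22 it was the highest of the rats of 1500 and 2500 mg/kg. It was 0.17 for rat 3628 and 0.04 for rat 3626. For rats 3629 and 3630 it was -0.23 each, and for rats 3623, 3624 and 3625 it was -0.36, -0.45 and -0.52. For the zeros and the slope of its Cy5 array, many results below are given also with rat 3631 represented by its Cy3 array alone. A single array keeps its dye bias (here a slope of 1.15), which the exchange of dyes cancels in part in the other rats. The reading by 1 array is therefore not a corrected value.

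Across 9653 genes, none passed the test of the difference between 2500 and 1500 mg/kg at an adjusted p under 0.05 in limma, and none of 22075 probes did. At an unadjusted p under 0.05 there were 761 genes, 7.88% of those tested, of which 294 (3.05%) were higher and 467 (4.84%) lower after 2500 mg/kg. For probes the number was 1635, or 7.41%. The 4 rats of one dose did not overlap the 4 of the other in 112 genes (1.16%), of which 35 (0.363%) were higher and 77 (0.798%) lower after 2500 mg/kg. The median SE of the difference was 0.11 and the median half-width of its 95% interval 0.22. Both rest on a variance pooled over the 9 groups and 34 rats of the fit. At 24 h the median SD over genes was 0.21 after 2500, 0.14 after 1500 and 0.09 after 150 mg/kg. Where a gene varied more after 2500 mg/kg than in the pooled groups, its interval, here and below, is too narrow for this comparison. For 7905 genes (81.9%) the interval lay within 1.5-fold in either direction, and 22 genes differed by more than 1 on the log2 scale. Among the 335 responding genes described below it lay within 1.5-fold for 106. These included 17 of the 74 raised genes, and 0 of the 6 genes with a mean change beyond 2. A weighted fit, in which limma estimates a weight for each rat, called 72 genes, but it gave rat 3626 a weight of 6.59, the other rats of 1500 mg/kg weights of 0.22 to 0.53, and rat 3631 a weight of 0.03. Without rat 3628, 19 genes passed. Named genes among these calls are given with their values below.

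Each dose alone differed widely from the vehicle pool. After 2500 mg/kg 1053 genes (10.9%) rose and 1506 (15.6%) fell, and after 1500 mg/kg 226 (2.34%) rose and 554 (5.74%) fell. The counts leave out the pool's own spread, and a gene that passed after one dose alone is not thereby shown to differ between the doses. The counts differed although the direct comparison called no gene. After 150 mg/kg no gene passed in limma, with 316 (3.27%) at an unadjusted p under 0.05. With the same sign in all 8 rats and a pass at both doses, 95 genes were raised and 403 lowered.

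**Figure D1:**
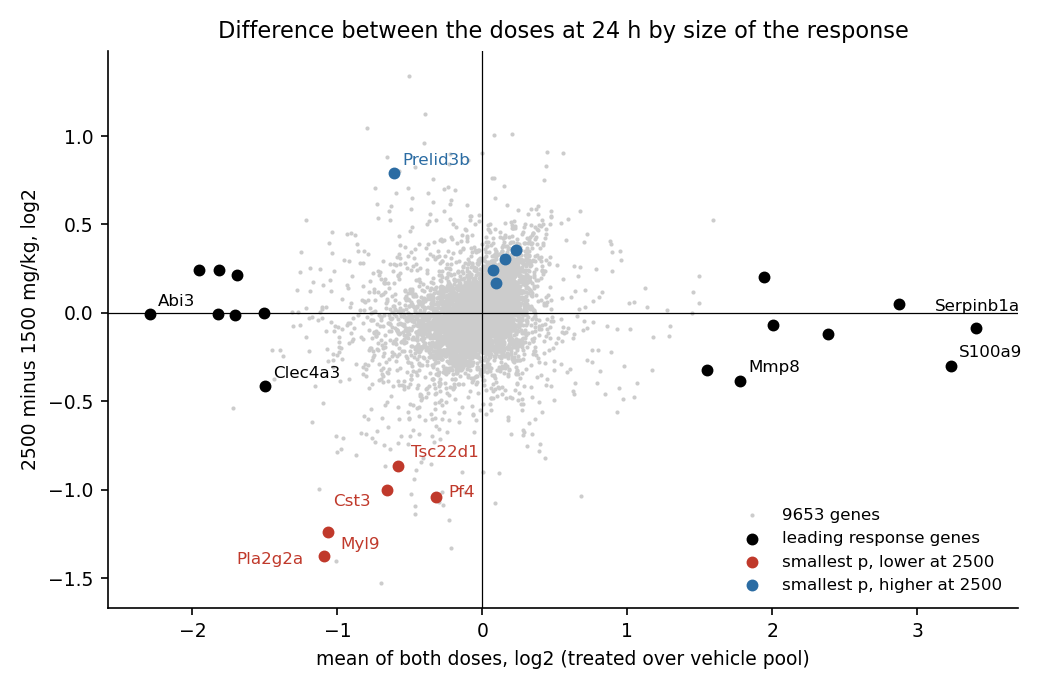
Difference between the doses at 24 h (2500 minus 1500 mg/kg, log2) against the mean of both doses (log2, treated over vehicle pool), a point per gene for 9653 genes. The leading response genes (black) lie between -0.41 and 0.24 on the vertical axis, while the 5 genes with the smallest p among those lower at 2500 mg/kg (red) lie at -0.87 to -1.38. The black genes had to pass at both doses, which favours small differences.

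Among genes that passed at both doses, the strongest responses had similar means, with wide intervals of the difference. Of genes that passed at both doses with the same sign in all 8 rats, the 8 highest and 8 lowest by the mean of both doses are described. Since this choice used the mean and not the difference, it favours neither sign of the difference where both groups have the same spread. The spread was in fact larger after 2500 mg/kg, with a median SD over genes of 0.21 against 0.14. The differences of the 16 genes ran from -0.41 to 0.24, their adjusted p in limma from 0.751 to 0.999, and all 16 intervals held 0.

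The 8 raised genes belong mostly to neutrophils and the acute response. Serpinb1a, an inhibitor of neutrophil serine proteases, read 3.10, 2.72, 4.33 and 3.65 in the rats of 1500 mg/kg and 4.43, 3.29, 3.45 and 2.29 in those of 2500 mg/kg. The groups overlapped fully, and all 8 rats stood above the 4 rats of 150 mg/kg, which read -2.10 to 0.09. The difference was -0.09 (95% interval -1.11 to 0.94). S100a9 read 3.55, 2.17, 4.13 and 3.68 after 1500 mg/kg and 3.70, 3.66, 3.98 and 0.99 after 2500 mg/kg. Rat 3631 was the lowest of the 8, and on its Cy3 array alone it was among the highest. The difference of -0.30 (-1.40 to 0.81) became 0.45 (-0.42 to 1.33) without its Cy5 array. S100a8 read 2.81, 1.43, 3.84 and 3.31 against 3.79, 3.20, 2.93 and 1.67, a difference of 0.05 (-0.92 to 1.02), with overlapping groups.

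The remaining raised genes also overlapped between the doses. Tf, which encodes the iron carrier transferrin, had means of 2.45 ± 0.91 after 1500 and 2.33 ± 0.70 after 2500 mg/kg (SD, n = 4 each). Il1r2, a decoy receptor for interleukin-1, had means of 2.04 ± 0.78 and 1.97 ± 0.49. Anxa1, a glucocorticoid-induced anti-inflammatory protein, had 1.85 ± 1.0 and 2.05 ± 0.77. Rats 3624 and 3631 were the lowest of their groups for all of these. Mmp8, the neutrophil collagenase, had means of 1.97 ± 0.76 and 1.58 ± 0.84, and Tlr2, a receptor for bacterial lipoproteins, 1.71 ± 0.86 and 1.39 ± 0.69. Of the 8 raised genes 2 were further from vehicle after 2500 mg/kg, and without the Cy5 array of rat 3631 all 8 were, with adjusted p of at least 0.937 over the 16 genes in limma. The direction of the small differences thus turned on 1 array.

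The 8 lowered genes were of mixed function. Kpna1, an importin of nuclear transport, read -2.02, -2.27, -1.58 and -1.87 after 1500 mg/kg and -2.10, -1.29, -1.56 and -1.83 after 2500 mg/kg. The groups overlapped, and all 8 rats were below the 4 rats of 150 mg/kg. The difference was 0.24 (-0.16 to 0.64). Gpx1, the cytosolic glutathione peroxidase, had means of -1.82 ± 0.31 and -1.83 ± 0.62, a difference of -0.01 (-0.56 to 0.54). Cmas, which activates sialic acid for transfer to glycans, had means of -2.07 ± 0.27 and -1.83 ± 0.50. Eef1e1, a protein of the aminoacyl-tRNA synthetase complex, had -1.51 ± 0.19 and -1.51 ± 0.59. Ranbp10, a Ran-binding protein, had -1.80 ± 0.22 and -1.59 ± 0.52. Clec4a3, a C-type lectin receptor of myeloid cells, had the widest gap of the 16, with -1.29 ± 0.54 and -1.70 ± 0.32 and a difference of -0.41 (-1.04 to 0.22).

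Abi3, an adaptor of the actin-regulating WAVE complex, and Zfp706, a small zinc finger protein, split within both doses. Abi3 read -3.31, -3.41, -1.31 and -1.13 after 1500 mg/kg and -1.18, -0.41, -3.11 and -4.49 after 2500 mg/kg. Zfp706 read -2.54, -3.73, -0.21 and -0.33, and -0.55, -0.41, -1.93 and -3.97. The same rats, 3623, 3624, 3630 and 3631, were low for both genes. In these rats 1 of the 2 arrays gave most of the low value: in rat 3623 Abi3 read 0.02 with the rat in Cy5 and was at the limit of the deposited scale (-6.64) with the rat in Cy3. Over the 16 genes 5 array values were at this limit, all of them for Abi3 or Zfp706. In rat 3631 the lower reading of Abi3 came from the Cy5 array that stood apart. With the mean dye profile removed from each array in proportion to its slope, Abi3 read -2.91, -2.59, -1.43 and -1.13 after 1500 mg/kg and -1.22, -1.14, -2.41 and -3.23 after 2500 mg/kg, a smaller split of the same rats.

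**Figure D2:**
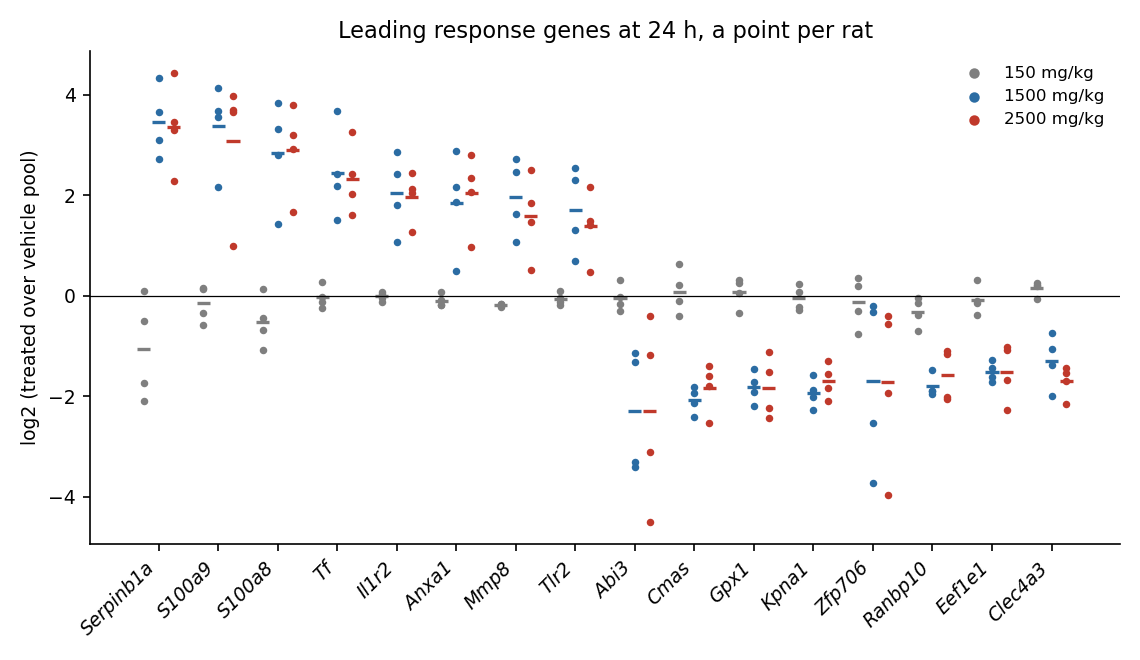
Log2 ratio of treated rat over vehicle pool for the 16 leading response genes at 24 h, with a point per rat and a bar at the mean of 4 rats for 150, 1500 and 2500 mg/kg. The points of 1500 and 2500 mg/kg overlap for every gene shown, and S100a9 has 1 rat of 2500 mg/kg at 0.99 below the other 3 at 3.66 to 3.98.

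A wider set also had similar mean amplitudes at both doses. In the mean of both doses 31.7% of the genes passed (adjusted p under 0.05), and 335 genes passed and were more than 1.5-fold from vehicle. Of these, 196 were further from vehicle after 2500 mg/kg and 139 after 1500 mg/kg (58.5% were further after 2500 mg/kg), and among all 9653 genes 66.7% differed in the direction of their mean. The median of the difference in that direction was 0.04, beside a median response of 0.78 (log2), and as a percent of the gene's own response it had a median of 5.04%. An unadjusted p under 0.05 was reached by 22 genes larger after 2500 mg/kg and 8 larger after 1500 mg/kg, together 8.96% against the 7.88% of all genes. With rat 3631 by its Cy3 array alone, the split was 175 to 160 and the median 0.02.

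The differences were also taken by the size of the response. Among the 249 genes with a mean change of up to 1 the median difference in the direction of the response was 0.06, among the 80 genes between 1 and 2 it was 0.03, and among the 6 genes beyond 2 it was -0.08. With rat 3631 by its Cy3 array alone these medians were 0.02, -0.01 and 0.44, so that their order by size turned on 1 array. The 74 raised genes had a median of -0.06, with 33 larger after 2500 mg/kg and 41 after 1500 mg/kg. The 261 lowered genes had a median of 0.06, with 163 and 98. By that rat's Cy3 array alone the raised genes had a median of 0.12, with 54 and 20, and the lowered genes -0.01, with 121 and 140. The mean values at both doses were near each other while those at 150 mg/kg were near 0. The 335 genes were chosen as far from vehicle in the mean of the 2 higher doses, which enlarges their values there. The rats of 150 mg/kg took no part in that choice, so the contrast with them is partly set by it. The interval of the difference lay within 1.5-fold for 106 of the 335 genes, so equal responses are not shown. The shape between 150 and 1500 mg/kg was not measured.

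The response size of a rat, the mean over the 335 genes of its log2 ratio turned to the direction of the response, was 1.12, 0.84, 0.71 and 0.82 after 1500 mg/kg and 0.98, 0.70, 0.95 and 1.08 after 2500 mg/kg. The groups overlapped almost wholly, with means of 0.87 ± 0.17 and 0.93 ± 0.16 (SD, n = 4 each). The rats of 150 mg/kg, which took no part in the choice of the 335 genes, read 0.12, -0.01, 0.00 and 0.06. For raised genes alone the means were 1.07 ± 0.57 after 1500 and 1.02 ± 0.37 after 2500 mg/kg, and for lowered genes 0.81 ± 0.32 and 0.90 ± 0.24. Rats that were high for raised genes were not those high for lowered genes: rat 3625 read 1.62 and 0.45, and rat 3624 read 0.32 and 0.99. Rat 3631 read 0.70 and 1.18, values that include the Cy5 array that stood apart.

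**Figure D3:**
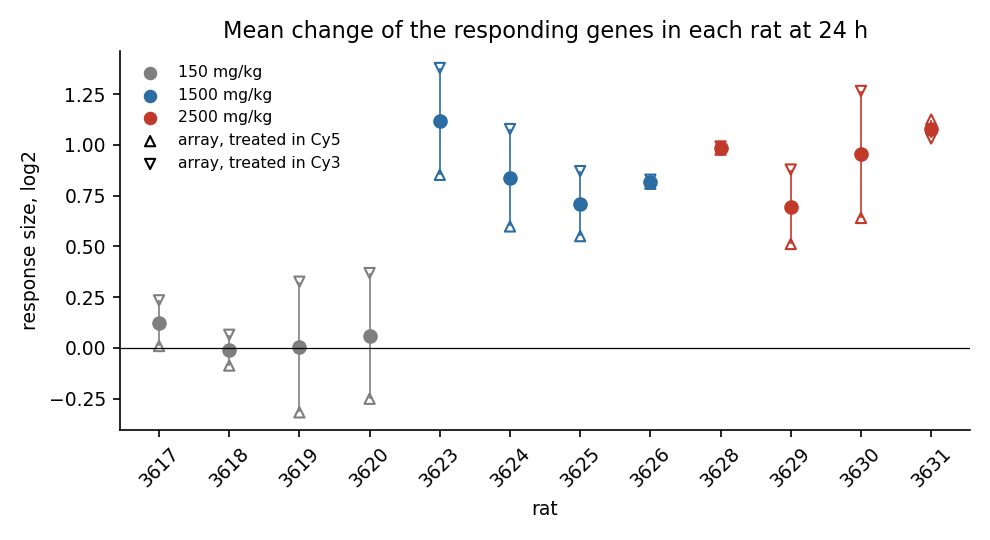
Response size of each rat at 24 h (log2, mean over 335 genes, filled circles) with the values of its arrays (triangles). Rats of 1500 mg/kg lie between 0.71 and 1.12, rats of 2500 mg/kg between 0.70 and 1.08, and rats of 150 mg/kg between -0.01 and 0.12. The genes were chosen on the rats of 1500 and 2500 mg/kg.

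The genes with the smallest p in the direct comparison were lower after 2500 mg/kg, and several are platelet genes. None passed the adjustment in the unweighted fit of all rats, so their values are given without a call. The weighted fit called Pf4, Myl9, Gp1bb, Pla2g2a, Cst3 and Tsc22d1 (adjusted p of 0.00186 to 0.0253 in limma), and the fit without rat 3628 called Pf4, Myl9, Gp1bb, Pla2g2a, Tsc22d1 and Clu (0.0339 to 0.0425). None of these 7 genes passed with rat 3631 by its Cy3 array alone (0.318 or more). Pf4, the platelet chemokine stored in alpha granules, read 0.16, 0.22, -0.22 and 0.63 after 1500 mg/kg and -0.26, -1.05, -1.26 and -0.80 after 2500 mg/kg. The groups did not overlap, although rat 3628 was only just below rat 3625. The difference was -1.04 (95% interval -1.49 to -0.59), or 2.06-fold, with an adjusted p of 0.136 in limma. On its Cy3 array alone rat 3631 read 0.31, so that the groups overlapped and the difference became -0.76 (adjusted p = 0.771 in limma). With both arrays kept and the mean dye profile removed, rat 3631 read -0.92. The groups then stayed apart, with a difference of -1.04.

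Myl9, a regulatory light chain of non-muscle and smooth muscle myosin that platelets use to contract, read -0.74, -0.01, -0.65 and -0.37 after 1500 mg/kg and -1.17, -2.09, -2.20 and -1.28 after 2500 mg/kg. All rats of 2500 mg/kg were lower than all of 1500 mg/kg. The difference was -1.24 (-1.79 to -0.69), and -1.11 with rat 3631 by its Cy3 array alone. Gp1bb, a subunit of the platelet receptor for von Willebrand factor, read -0.59, 0.03, -0.23 and -0.21 against -0.68, -1.17, -1.22 and -1.01. Here too the groups were apart, by a difference of -0.77 (-1.12 to -0.42) that became -0.70 without that array. Clu, which encodes clusterin, a chaperone that platelets also store in granules, had means of -0.15 ± 0.14 and -0.62 ± 0.24 (SD, n = 4 each). The adjusted p of these 3 genes was 0.136, 0.136 and 0.154 in limma.

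Genes outside the platelet list stood beside them. Pla2g2a, the secreted phospholipase A2 known from rat platelets, read -0.82, 0.12, -0.83 and -0.10 after 1500 mg/kg and -1.27, -2.02, -2.26 and -1.59 after 2500 mg/kg. The groups did not overlap, and the difference was -1.38 (-1.94 to -0.82), or 2.60-fold. On its Cy3 array alone rat 3631 read -0.57, so that the groups overlapped and the difference became -1.12 (-1.76 to -0.48), with an adjusted p of 0.407 in limma. With both arrays kept and the mean dye profile removed, that rat read -1.78 and the groups stayed apart. Cst3, the protease inhibitor cystatin C, had means of -0.16 ± 0.35 and -1.16 ± 0.17, a difference of -1.0 (-1.43 to -0.57). Tsc22d1, a transcription regulator induced by transforming growth factor beta, had means of -0.15 ± 0.25 and -1.01 ± 0.16, a difference of -0.87 (-1.20 to -0.53). Of its 3 probes 2 differed by -1.37 and -1.21 and the third by -0.01. The differences of Cst3 and Tsc22d1 were -0.88 and -0.76 with rat 3631 by its Cy3 array alone. For the 5 genes with the smallest p (Pf4, Myl9, Pla2g2a, Cst3 and Tsc22d1) the adjusted p was 0.136 in limma. Against the vehicle pool these 5 genes fell after 2500 mg/kg (adjusted p of 0.000302 or less in limma), and none did after 1500 mg/kg (0.17 or more). They were chosen on the difference between the doses in the same rats, so these vehicle tests add no separate support.

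Of the 14 platelet genes measured, none passed in the direct comparison in the unweighted limma fit. In the weighted fit 5 passed (Pf4, Myl9, Gp1bb, Rab27b and P2ry12), beside 72 of all 9653 genes, with rat 3626 at a weight of 6.59. Without rat 3628 there were 4 (Pf4, Myl9, Gp1bb and Clu), beside 19 of all 9653. All of these platelet genes were lower after 2500 mg/kg. In the unweighted fit 6 (42.9%) were lower at an unadjusted p under 0.05 and none higher, beside 4.84% and 3.05% of all genes. Their median difference was -0.30, beside -0.01 over all genes. Against the vehicle pool 7 fell and 1 rose after 2500 mg/kg, and none passed in either direction after 1500 mg/kg. The shares over all genes were 15.6% and 10.9% after 2500 mg/kg, and 5.74% and 2.34% after 1500 mg/kg. The median over the 14 genes was -0.11, -0.01, -0.10 and 0.01 in the rats of 1500 mg/kg and -0.14, -0.15, -0.28 and -0.59 in those of 2500 mg/kg. The groups were apart by a narrow margin, with rat 3631 the lowest, and platelet was the single list of 25 whose rat medians did not overlap between the doses. The smallest p that an exact permutation test of 4 against 4 rats can give is 0.0286. A single such list among 25 could therefore arise by chance. Of all genes 1.16% did not overlap. Rat 3618 of 150 mg/kg had a platelet median of -0.18, below rats 3628 and 3629 of 2500 mg/kg (-0.14 and -0.15). The other rats of 150 mg/kg read 0.04 to 0.13. Members that were lower included Rab27b, a GTPase of granule secretion, at -1.40, and P2ry12, the platelet receptor for adenosine diphosphate, at -0.40. Others stayed close to 0: the difference was below 0.01 in size for Vwf, 0.02 for Thbs1 and 0.07 for F13a1, which encode von Willebrand factor, thrombospondin 1 and the clotting factor XIII A chain. The median difference was -0.19 with rat 3631 by its Cy3 array alone and -0.08 without this rat, with 6 members lower and 1 higher at an unadjusted p under 0.05 in both cases. The list was written with earlier results of these data known.

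At 12 h the group means of the same genes differed the other way between the doses. Pf4 read -1.59, -0.49 and -1.36 in the 3 rats of 1500 mg/kg and -0.35, -0.12, 0.01 and -0.03 in the 4 rats of 2500 mg/kg. The 12 h groups did not overlap for Pf4 or Gp1bb, with 1500 mg/kg the lower. They overlapped for Myl9, Cst3, Pla2g2a and Tsc22d1. For these, rat 4133 of 1500 mg/kg read -0.45, -0.45, -0.26 and -0.06, and rat 4135 of 2500 mg/kg read -0.51, -0.66, -0.56 and -0.44. Clu overlapped as well, at -0.32 and -0.33 in these 2 rats. The 3 rats of 150 mg/kg at 12 h read -0.36, -0.10 and -0.04 for Pf4, and -0.55, -0.43 and -0.57 for Myl9. They were thus within or below the range of 2500 mg/kg. The difference of Pf4 was 1.02, with an adjusted p of 0.135 in limma. For Myl9 the 12 h difference was 1.20, for Gp1bb 0.91, for Cst3 0.88, for Pla2g2a 0.77 and for Tsc22d1 0.51, with adjusted p of 0.135 to 0.643 in limma. At 6 h these 6 genes (Clu not counted) differed by -0.12 to 0.17. No gene passed at 12 h or at 6 h, with 567 (5.87%) and 272 (2.82%) at an unadjusted p under 0.05.

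The change of the dose difference from 12 to 24 h was tested itself, as an interaction term added after the values were seen. It passed in 21 genes (0.218% of those tested), all with a lower difference at 24 h. Of these, 4 are on the platelet list: Gp1bb (change -1.68, adjusted p = 0.00296 in limma), Pf4 (-2.06, 0.00314), Myl9 (-2.44, 0.00314) and Clu (-0.84, 0.0119). Pla1a, a phosphatidylserine-specific phospholipase known from rat platelets, changed by -2.07, Cst3 by -1.88 and Pla2g2a by -2.15. Npy, the neuropeptide Y that rat platelets also carry, changed by -1.97, and Nck2, an adaptor of receptor signalling to actin, by -1.83. Gstp1, the pi-class glutathione transferase, changed by -0.57, the smallest of the 21. The number passing fell to 6 without rat 4132 of the 1500 mg/kg group at 12 h and rose to 40 without rat 4133, and it was 15 to 22 when any of the 8 rats of 24 h was left out. Rat 4133 was the one nearest 0 of its group for Pf4, Myl9 and Gp1bb. At 24 h a rat of the lowest dose, 3618, was also low: it read -0.74 for Pf4, -0.81 for Myl9 and -0.89 for Pla2g2a, while the other 3 rats of 150 mg/kg read 0.19 or more for each of them.

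**Figure D4:**
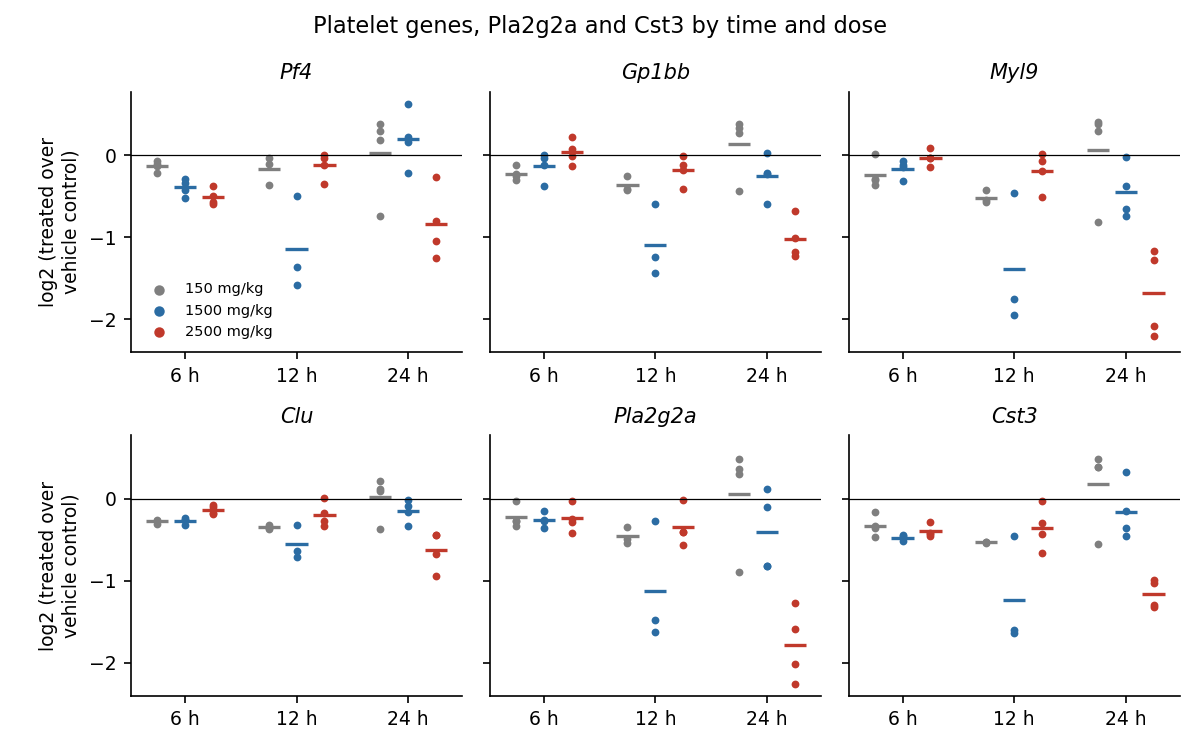
Log2 ratio of treated rat over the vehicle control of its time for Pf4, Gp1bb, Myl9, Clu, Pla2g2a and Cst3 at 6, 12 and 24 h, with a point per rat and a bar at the group mean (3 or 4 rats). By the group mean 1500 mg/kg is the lowest at 12 h and 2500 mg/kg at 24 h, while at 12 h single rats of the doses overlap for Myl9, Clu, Pla2g2a and Cst3.

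The 5 genes with the smallest p among those higher after 2500 mg/kg had smaller differences. Prelid3b, a protein of the PRELI family of mitochondrial lipid transfer, read -0.73, -1.23, -1.61 and -0.46 after 1500 mg/kg and -0.33, 0.15, -0.37 and -0.31 after 2500 mg/kg. The groups did not overlap and the difference was 0.79 (0.38 to 1.20), with an adjusted p of 0.25 in limma. The Cy5 array of rat 3631 listed this gene at exactly 0. On its Cy3 array alone the rat read -0.62, so that the groups overlapped and the difference was 0.71 (adjusted p = 0.472 in limma). With both arrays kept and the mean dye profile removed, it read 0.21 and the groups stayed apart. Mthfd2l, a mitochondrial enzyme of folate metabolism, differed by 0.35, Prmt3, an arginine methyltransferase of ribosomal protein, by 0.30, and Ndufa4l2, a mitochondrial protein induced by hypoxia, by 0.24. Smad2, a signal transducer of transforming growth factor beta, differed by 0.17, with its 2 probes at -0.03 and 0.37. In these 4 the groups overlapped, with rat 3631 the highest of all 8 rats in each. On its Cy3 array alone this rat read 0.09, -0.02, 0.05 and -0.02 for Mthfd2l, Prmt3, Ndufa4l2 and Smad2, and the differences became 0.21, 0.18, 0.13 and 0.09. These 4 genes were among those called without rat 3628 (adjusted p of 0.0339 to 0.0353 in limma).

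Neutrophil genes did not separate the doses as a list. Of 20 measured, 12 rose after 1500 mg/kg and 11 rose and 1 fell after 2500 mg/kg. Of all genes 2.34% rose and 5.74% fell at the lower dose, and 10.9% and 15.6% at the higher. The median difference was -0.08, which became 0.05 with rat 3631 by its Cy3 array alone and 0.01 without this rat. The 1 gene that fell after 2500 mg/kg was Fcnb, which encodes ficolin B, a lectin of granulocytes and monocytes. It read -0.03, 0.09, 0.89 and 0.86 after 1500 mg/kg and -0.66, -0.31, -0.41 and -0.41 after 2500 mg/kg. The groups did not overlap, and rats 3625 and 3626 were the high ones. It passed against the vehicle pool in opposite directions, upward after 1500 mg/kg (adjusted p = 0.0401 in limma) and downward after 2500 mg/kg (0.0191). Fcnb was named for its difference between the doses in the same rats, so these vehicle tests add no separate support. The direct difference of -0.90 (-1.30 to -0.50) had an adjusted p of 0.136 in limma, and 0.00186 in the weighted fit. That fit gave rat 3626, one of the 2 high rats, a weight of 6.59, and its difference was -1.32. The direct difference was -0.76 with rat 3631 by its Cy3 array alone, on which that rat read 0.13, so that the groups then overlapped. With both arrays kept and the mean dye profile removed, that rat read -0.51 and the groups stayed apart. Lyz2, the lysozyme of monocytes and macrophages, had means of 0.63 ± 0.65 and -0.45 ± 0.64, a difference of -1.07 that shrank to -0.65 without that array.

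Lymphocyte and red cell genes were at similar levels relative to vehicle at both doses. Among all genes tested 2.34% rose and 5.74% fell at the lower dose, and 10.9% rose and 15.6% fell at the higher. Of the 17 T cell genes measured, 9 fell at the lower dose and 11 at the higher, with list medians of -0.41 and -0.43. Among 9 B cell genes, 5 fell whichever dose was given, and the median differed by 0.05. Of 25 erythroid genes 11 fell after 1500 mg/kg, and 12 fell and 2 rose after 2500 mg/kg, with a median difference of -0.02. Nfe2, a transcription factor of both megakaryocytes and red cell precursors, differed by -0.60 (-0.98 to -0.22), with rat 3631 the lowest at -1.82. On its Cy3 array alone that rat read -0.66 and the difference was -0.31. Tal1, another regulator of these lineages, differed by -0.49. Slc4a1, the red cell anion exchanger, differed by 0.43 (0.04 to 0.83). Its 2 probes differed by 0.87 and -0.01, and rat 3623 read -1.79 where the other rats of 1500 mg/kg read -0.55 to -0.36. The adjusted p of these 3 genes was 0.54 to 0.628 in limma.

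Of 24 interferon response genes measured, none passed in the direct comparison in limma, and 7 (29.2%) were lower at an unadjusted p under 0.05 and none higher, beside 4.84% and 3.05% of all genes. The median difference was -0.15, beside -0.01 over all genes. Against vehicle 7 rose and 1 fell after 1500 mg/kg, and 3 rose and 8 fell after 2500 mg/kg. The shares over all genes were 2.34% and 5.74% after the lower dose and 10.9% and 15.6% after the higher. Ifit3, an interferon-induced antiviral protein, read 0.10, 1.13, 1.88 and 1.69 after 1500 mg/kg and 0.91, 0.23, -0.69 and 0.21 after 2500 mg/kg. The groups overlapped, and the difference was -1.04 (-1.86 to -0.21; adjusted p = 0.616 in limma). On its Cy3 array alone rat 3631 read 1.72 for this gene. Eif2ak2, the RNA-activated kinase PKR, differed by -0.82, Stat2, a transcription factor of interferon signalling, by -0.32 and Irf1 by -0.13. The 3 probes of Stat2 differed by -0.76, -0.08 and -0.10. With rat 3631 by its Cy3 array alone, the list's median was -0.09 and 3 members were lower at an unadjusted p under 0.05.

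The stress lists that an injury by acetaminophen could move showed small medians. Of 34 Nrf2 and oxidative stress genes, 6 were lower and 2 higher at an unadjusted p under 0.05, beside 4.84% and 3.05% of all genes, and the median difference was -0.13. With rat 3631 by its Cy3 array alone 1 was lower and none higher, and the median was -0.01. Fth1, the heavy chain of the iron store ferritin, read 0.19, 0.63, 0.09 and 0.06 after 1500 mg/kg and 0.04, -0.13, -0.08 and -0.60 after 2500 mg/kg. The groups were apart by a narrow margin, and the difference of -0.43 became -0.16 without that array, when rat 3631 read 0.49 and the groups overlapped. Of 21 ER stress genes 3 were lower, among them Pdia4, a protein disulfide isomerase, at -0.49 (-0.79 to -0.19). Of 22 heat shock genes 3 were lower, among them Hsph1, a chaperone of the Hsp110 family, at -0.61. These 2 lists kept their medians of -0.06 and -0.09 at -0.09 and -0.08 without that array. For p53 targets the median was 0.00 and for 14 genes of acetaminophen metabolism -0.02.

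Ribosomal, proteasome and respiratory chain genes had more members past the test against vehicle after 2500 mg/kg, but the direct differences were small. Over all genes, 5.74% fell at the lower dose and 15.6% at the higher. Among 47 ribosomal protein genes, 14 fell at the lower dose and 28 at the higher, and the median difference was -0.11. It was 0.05 with rat 3631 by its Cy3 array alone. Rpl10, a protein of the large subunit, had the smallest p of the list at -0.70, and rat 3631 read -1.68 for it and -0.11 on its Cy3 array. Of 40 proteasome genes 7 and 23 fell, with a median difference of -0.09. Of 52 respiratory chain genes 6 and 26 fell, with a median difference of -0.07. With rat 3631 by its Cy3 array alone these medians were -0.0047 and 0.01.

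Liver transcripts in blood, of which 48 were measured, had a median difference of -0.0038. At an unadjusted p under 0.05, 1 member was higher and 3 were lower, beside 3.05% and 4.84% of all genes. Against vehicle 8 rose after 1500 mg/kg, and 18 rose and 4 fell after 2500 mg/kg, where 2.34% of all genes rose at the lower dose, and 10.9% rose and 15.6% fell at the higher. C3, the central complement component, had means of 1.21 after 1500 and 0.72 after 2500 mg/kg, a difference of -0.49 (-0.96 to -0.02) that became -0.35 (-0.85 to 0.16) with rat 3631 by its Cy3 array alone. Ttr, the thyroid hormone carrier transthyretin, differed by 0.24 (0.00 to 0.47). Rat 3631 was the highest at 1.09, and by its Cy3 array alone, where it read 0.61, the difference was 0.12 (-0.05 to 0.29). The adjusted p of both was 0.628 to 0.633 in limma. Of all 25 lists 22 had a median below 0, and 13 did with rat 3631 by its Cy3 array alone.

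**Figure D5:**
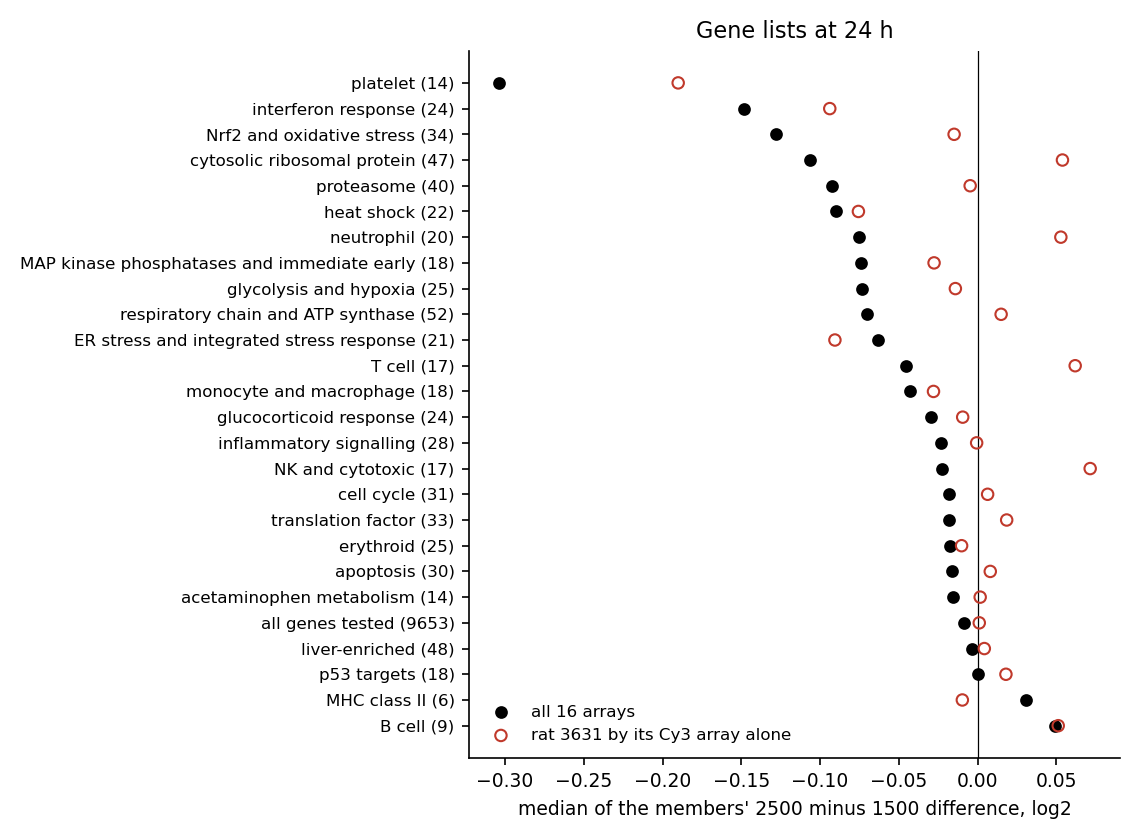
Median over each list's measured members (number in brackets) of the 2500 minus 1500 mg/kg difference at 24 h (log2), for all 16 arrays (filled) and with rat 3631 by its Cy3 array alone (open). The platelet list is the lowest in both, at -0.30 and -0.19.

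Genes that had already changed at 12 h after 2500 mg/kg gave a choice made on other rats and another control. At 12 h 134 genes passed (1.39%), 9 upward and 125 downward. The 10 lowest of these were all below vehicle at 24 h in the mean of each dose, with 7 passing after 1500 mg/kg and 6 after 2500 mg/kg. Their dose difference at 24 h had a median of 0.03 and ran from -0.49 to 0.53, with 5 of 10 below 0. Cd2, an adhesion receptor of T and NK cells, was at -1.82 at 12 h and at 24 h at -1.48 ± 1.43 after 1500 and -0.95 ± 0.69 after 2500 mg/kg. Ifi27l2b, an interferon-induced gene, was at -1.21 at 12 h, and at -0.64 ± 0.68 and -0.94 ± 0.31 at 24 h. Nup42, a protein of the nuclear pore, was at -1.36 at 12 h, and at -0.82 ± 0.35 and -0.68 ± 0.46. The 9 raised genes were raised little at 12 h, with Tspyl1 at 0.31, Pwp1 at 0.27 and Fam83h at 0.19 the highest, and their dose differences at 24 h ran from -0.08 to 0.14.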

How the data were processed

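The authors deposited log10 ratios of both dyes for 22075 probes on each array. Their background correction and normalization are not stated in the labels or headers. Values were limited to between -2 and 2 (0.558% at the limit) and 2.98% were exactly 0; array medians were -0.00352 to 0. Of the probes, 12750 had 1 gene, 5 several and 9320 none; symbols were updated through GRCr8 identifiers (12720 matched). Log2 ratios were averaged over a rat's 2 dye-swapped arrays, counted as 1 replicate, then over a gene's probes (2266 of 9653 genes had over 1).

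The limma test (3.58.1, R 4.3.3, data.table version 1.17.8) fitted a mean for each of 9 groups over 34 rats (25 residual degrees of freedom; prior 1.73 for genes, 1.55 for probes), with Benjamini-Hochberg adjustment over all genes or probes. It was tested on simulated data. The number of arrays limits the precision. Figures used Python 3.11.15 and matplotlib 3.10.9.

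Named genes were the 5 smallest p in each direction (none passed), the 8 highest and 8 lowest means of both doses, in each list described up to 4 members with the smallest p, and 3 genes at either end of those chosen at 12 h. Further members and genes of the change from 12 to 24 h were named after their values were seen. The rats, gene lists and rules were chosen with earlier results of these data known. Alternatives changed the rats fitted, scaling, centring, zeros, limit values, dye profile, dye orientation, eBayes, weights, probes and the pool's spread.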

Additional observations from a re-analysis of the deposited data

Results flagged for a closer look

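In 3 of 64 groups of 4 rats examined (each leading or named gene, the response size and the main list medians, at each dose), a single rat stood apart from the other 3; chance gives about 1 in 20. S100a9 read 0.99 in rat 3631 of 2500 mg/kg, where the others read 3.66 to 3.98, and this rat's Cy5 array, the one that stood apart, read -2.02. Prelid3b read 0.15 in rat 3629 of 2500 mg/kg, where the others read -0.37 to -0.31. Ranbp10 read -1.48 in rat 3624 of 1500 mg/kg, where the others read -1.95 to -1.88.

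For 5 genes the difference between the doses changed between 12 and 24 h by a test of the change itself (limma interaction term). The change was -1.38 for Tsc22d1, -2.15 for Pla2g2a, -1.88 for Cst3, -2.06 for Pf4 and -2.44 for Myl9, with adjusted p of 0.00314 to 0.0108. These genes were chosen on their 24 h difference, which is part of the change, and the 12 h group of 1500 mg/kg had 3 rats.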

How the results depend on the processing

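The direct comparison called no probe or gene in any alternative other than the weighted fit (152 probes and 72 genes) and the fits that left out a rat (0 to 2 probes, 0 to 19 genes). The 16 leading genes changed sign in 62 of 336 comparisons, none past the threshold. Probes past the test against vehicle, 4988 after 2500 and 1140 after 1500 mg/kg, were 993 and 358 with only the 12 rats of 24 h, 289 and 127 with only the 8 rats, 1611 and 405 with the spread of a pool of 6 added, 9942 and 12023 by Cy3 arrays alone; after 1500 mg/kg they were 6775 by Cy5 arrays alone, 7369 in the weighted fit and 582 to 1809 with a rat left out. The change of the dose difference from 12 to 24 h passed in 10 genes by Cy3 arrays alone, 75 in the weighted fit and 6 to 40 with a rat left out. The platelet median was -0.145 without values at the limit, -0.546 by Cy5 arrays, -0.0578 by Cy3 arrays and -0.376 to -0.0775 with a rat left out. The liver median was -0.0594 by Cy5 arrays, 0.0318 in the weighted fit and -0.0245 to 0.0221 with a rat left out. The response size and the medians of the leading, neutrophil and ribosomal genes moved by less than the spread between rats. The cause was not tested in any case. The rat 3631 setting and the test of change were added after seeing the data. No paired analysis was possible because each rat has a number of its own, shared by no other group.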

Other observations

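Among the lists not yet described, NK and cytotoxic genes (17 measured) had a median difference of -0.02 between the doses and cell cycle genes (31) also -0.02, beside -0.01 over all genes. Among 33 translation factor genes, 10 fell at the lower dose and 12 at the higher, beside 5.74% and 15.6% of all genes. Their median differed by -0.02. Cxcl2, a chemokine that draws neutrophils, read 0.27, 0.32, 0.16 and 0.05 after 1500 mg/kg and 0.38, 0.15, 0.62 and 1.55 after 2500 mg/kg. Rat 3631 was the highest, at 0.25 on its Cy3 array alone, and the difference of 0.47 became 0.15 by that array.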
